A study of Homo sapiens with 2 samples.

Results

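TNF superfamily ligands, their receptors and the adaptors that carry their signals were compared between MDA-MB 231 cells stably transfected with S100A7 and cells carrying the empty plasmid. MDA-MB 231 is an invasive human breast cancer line without estrogen receptor, and S100A7 (psoriasin) is a small calcium-binding protein known from inflamed skin. The S100A7 sample carried S100A7 in the vector pIRES2-EGFP and the control sample pIRES2-EGFP alone, so both went through transfection and stable selection. The labels do not say whether either line was a clone or a pool, and a line of the S100A7 sample's description that speaks of embryos was set aside. There was 1 array for each line, so no difference could be tested against replicate spread and genes were sorted by the size of the difference.

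The genes were taken by symbol: TNF, LTA, LTB, FASLG, FAS, CD40, FADD, TRADD, RIPK2, BIRC2, CFLAR, the TRAF genes and every symbol beginning with TNFSF or TNFRSF. Of 54675 probe sets on the array, 114 listed 1 such gene and stood for 49 genes, and 8 more listed such a gene together with another and were kept out of the gene counts. BIRC3, RIPK1 and TRAF2, which belong to the same rule, were not analysed here. Ligands numbered 14, receptors 22, and adaptors, kinases and inhibitors 10, and the prefix rule also took in 3 noncoding transcripts named after a receptor gene.

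TNF superfamily ligands are trimers, made mostly as membrane proteins and often shed, that cluster their receptors on the target cell. Receptors with a death domain recruit FADD or TRADD and can lead to caspase activation, whereas the others bind TRAF proteins directly and lead mainly to NF-kB and MAP kinase signalling. In breast cancer cells TNF is best known for inducing NF-kB-dependent cytokines, and TRAIL (TNFSF10) for killing cells through its death receptors.

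A probe set was called measured when it reached the array's 50th percentile, here the floor (71.0 for vector, 68.99 for S100A7), on at least 1 array. Lower readings were raised to the floor, so where only 1 array is above it the fold is given as at least that size. By this rule 70 of the 114 probe sets and 35 of the 49 genes were measured. Each gene is given by its brightest measured probe set, and all values below are intensities on the linear MAS5 scale unless a log2 ratio (S100A7 over vector) is named. Intensities of different probe sets cannot be ranked against each other, so genes are compared between the arrays only.

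The transfected gene stood where the labels put it, reading 11.99 on the vector and 13232 on the S100A7 array. Markers of the line were present on both arrays (8 of 8 measured, among them VIM, CD44 and AXL), and ESR1, PGR and CDH1 were below the floor on both, whereas GATA3 (719.7 and 752.4) and EPCAM (544.4 and 513.0) were measured. Many superfamily members are leukocyte genes. Of 8 T and NK cell markers 0 were measured. PTPRC, the leukocyte antigen CD45, read 27.15 in vector and 50.1 in S100A7 cells, below the floor. It was 1 of 3 markers listed for all leukocytes, of which 2 were measured. These were LCP1, at 11511 in vector and 11589 in S100A7 cells, and CORO1A, at 94.9 and 86.9. Of 7 myeloid markers 2 were measured, CSF1R at 128 and 163.5 and ITGAM at 127 and 48.4. The endothelial list was not level: its markers summed to 307 in vector and 837 in S100A7 cells, with TIE1 at 134 and 574, CDH5 at 24.8 and 78.96, PECAM1 at 132 and 168, and VWF below the floor on both.

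Most of the superfamily differed little between the lines, and both receptors for TNF itself were higher in S100A7 cells. Of the 35 measured genes, TNFRSF1B alone was shown to be 2-fold or more higher in S100A7 cells, and RIPK2 alone 2-fold or more lower, 1 gene each way, against 1.8% of all 12688 measured genes higher and 2.25% lower. At 1.5-fold the counts were 4 higher and 4 lower, against 8.12% and 10.0% of all measured genes. Of the 30 members above the floor on both arrays, 25 lay within 1.5-fold, 3 were 1.5-fold or more higher and 2 as much lower. The 5 measured members outside these 30 have at most a bound. A log2 ratio above 0 was found for 18 of 35 members and for 45.8% of all measured genes. The median log2 ratio of the members was 0.18, beside -0.04 for all measured genes, but it was -0.00 when each gene was given by the median of its probe sets and -0.03 without probe sets named _x_at or _s_at, so the members have no settled common direction. As shares, 1 of 35 and 4 of 35 are near those of the background, so the counts do not set the superfamily apart and the description turns on its individual members.

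**Figure D1:**
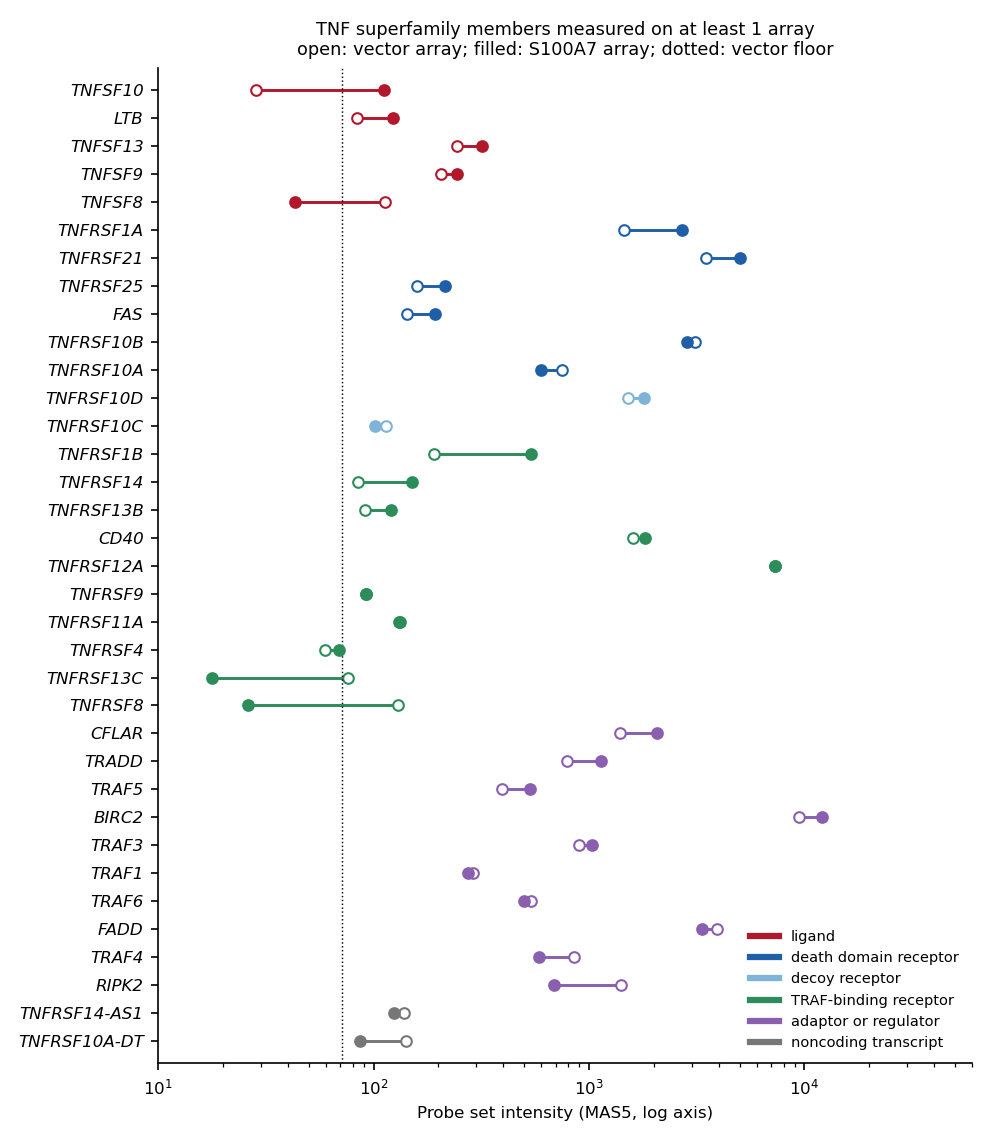
Intensity of each of the 35 measured members on the vector array (open circles) and the S100A7 array (filled circles), on a logarithmic axis, with genes grouped by role and the vector array's floor of 71.0 as a dotted line. The widest gap among genes above the floor on both arrays is that of TNFRSF1B, from 190 to 538, and TNFRSF12A shows no visible gap, at 7337 and 7333.

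TNFRSF1B and TNFRSF1A encode the receptors for TNF and lymphotoxin alpha. TNFRSF1A (TNFR1) is made by most cells and carries a death domain, and TNFRSF1B (TNFR2) lacks that domain, binds TRAF proteins and is known mainly from leukocytes and endothelial cells. TNFRSF1B read 190 in vector and 538 in S100A7 cells, a 2.83-fold higher intensity and the largest difference among the 30 members above the floor on both arrays. TNFRSF1A read 1455 in vector and 2708 in S100A7 cells, 1.86-fold higher (log2 ratio 0.90). Each rests on 1 probe set, and that of TNFRSF1A is an _s_at probe set, a kind that may detect more than 1 transcript. Against a floor at the 70th percentile the vector reading of TNFRSF1B was no longer above background and its log2 ratio became a lower bound of 0.93. Since TNFR2 is known from endothelium too, the endothelial marker values above stand beside its difference, and their part in it was not tested. TNF read 50.3 in vector and 58.4 in S100A7 cells, below the floor on both arrays, and LTA read 4.93 and 5.63, so both receptors were measured while neither of their ligands was.

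Promoter sequences are given for the 4 members that were at least 1.5-fold higher in S100A7 cells, since they carry the higher readings of the superfamily. Each runs from 250 bases before to 50 bases after the gene's start, from RefSeq on GRCh38.p14, 5′ to 3′ on the gene's strand. Capitals mark matches to the NF-kB consensus, the GC box (GGGCGG) or the TATA motif (TATAAA), searched on both strands.

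TNFRSF1B (chr1:12166741-12167040, plus strand): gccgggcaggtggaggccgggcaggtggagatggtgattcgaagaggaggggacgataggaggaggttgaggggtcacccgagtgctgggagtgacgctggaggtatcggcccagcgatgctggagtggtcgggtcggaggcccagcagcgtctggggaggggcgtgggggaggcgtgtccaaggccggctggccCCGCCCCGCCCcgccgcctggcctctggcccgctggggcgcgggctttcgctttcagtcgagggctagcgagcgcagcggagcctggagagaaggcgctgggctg

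TNFRSF1A (chr12:6342027-6342326, minus strand): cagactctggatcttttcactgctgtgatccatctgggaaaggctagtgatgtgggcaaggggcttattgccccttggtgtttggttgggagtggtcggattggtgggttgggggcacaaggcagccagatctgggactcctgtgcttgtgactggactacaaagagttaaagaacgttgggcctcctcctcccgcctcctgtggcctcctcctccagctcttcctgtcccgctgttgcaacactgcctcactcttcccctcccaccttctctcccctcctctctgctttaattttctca

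TNFRSF14 (chr1:2556121-2556420, plus strand): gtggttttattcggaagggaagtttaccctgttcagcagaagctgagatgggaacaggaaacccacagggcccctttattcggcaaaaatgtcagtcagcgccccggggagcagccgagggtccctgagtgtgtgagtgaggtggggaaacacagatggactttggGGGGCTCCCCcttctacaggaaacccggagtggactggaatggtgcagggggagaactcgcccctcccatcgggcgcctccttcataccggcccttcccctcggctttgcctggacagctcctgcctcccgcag

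TNFSF10 (chr3:172523381-172523680, minus strand): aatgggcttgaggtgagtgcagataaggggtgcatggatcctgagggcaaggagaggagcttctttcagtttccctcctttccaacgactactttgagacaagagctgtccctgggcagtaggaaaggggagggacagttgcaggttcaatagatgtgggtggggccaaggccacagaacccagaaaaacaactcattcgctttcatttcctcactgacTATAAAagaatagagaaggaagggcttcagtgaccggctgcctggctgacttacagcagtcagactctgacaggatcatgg

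TNFRSF1B held 2 GC boxes, read as CCGCCC on the gene's strand, beginning 55 and 50 bases before the start. TNFRSF14 held 1 match to the NF-kB consensus, GGGGCTCCCC, beginning 84 bases before it, and TNFSF10 held a TATA motif beginning 31 bases before it. The TNFRSF1A window held none of the 3. In the same 300-base window, the NF-kB consensus occurred in 5.91% of 35116 human promoters and in 12 of the 51 promoters listed for 34 of the members (23.5%), several of which belong to the same gene. For the GC box these shares were 44.95% and 60.8%, and for the TATA motif 11.5% and 11.8%. These matches describe letters only: a match is not evidence of binding, and a window without a match says nothing about the factor.

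Death receptors other than TNFR1 were mostly a little higher or a little lower. TNFRSF21 (DR6), a death domain receptor with a role in neurons and lymphocytes, read 3509 in vector and 5017 in S100A7 cells (1.43-fold higher), and its other probe set agreed in direction, at 1513 and 2516 (log2 ratio 0.73). FAS, the receptor for Fas ligand, read 144 and 194 (1.35-fold higher), and its 3 measured probe sets had log2 ratios of 0.29 to 0.58, of which 2 are bounds, while 2 more stayed below the floor. TNFRSF25 (DR3), the receptor for TL1A, went both ways: its brightest probe set read 158 and 214.5, another 172 and 127, and 1 more, at 80.0 and 13.1, was at least 1.16-fold lower. On the brightest probe set 4 of the 6 death domain receptor genes, TNFRSF1A included, thus had a log2 ratio above 0. Of all measured genes 45.8% did. The 2 death domain receptors below 0 were the TRAIL receptors.

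The TRAIL death receptors were lower in S100A7 cells by small amounts on every measured probe set. TNFRSF10A (TRAIL-R1) read 749, 664.5 and 754 on its 3 probe sets in vector cells and 602, 523 and 593 in S100A7 cells, with log2 ratios from -0.35 to -0.32. TNFRSF10B (TRAIL-R2) read 3104 and 2838 on its brightest probe set, and its log2 ratios ran from -0.40 to -0.13. The probe sets of each gene agreed in direction, but both genes lie in a region where neighbours were lower too. Over the 40 nearest measured genes the median was -0.18 for TNFRSF10A and -0.23 for TNFRSF10B, and with that median subtracted TNFRSF10B stood at 0.10 and TNFRSF10A at -0.14. The decoys, which bind TRAIL without signalling death, lie beside them. TNFRSF10D read 1521 in vector and 1802 in S100A7 cells on its brightest probe set (log2 ratio 0.24) and 322 and 297 on the other. TNFRSF10C read 114 and 101.5 on 1 of its 4 probe sets, and the others were below the floor. A probe set that lists TNFRSF10C with another gene read 128 in vector and 25.2 in S100A7 cells. TNFRSF11B (osteoprotegerin), a soluble decoy for RANKL and TRAIL, was below the floor, at 44.9 and 57.1 on its brighter probe set.

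TNFSF10, the ligand TRAIL, read 28.5 in vector and 112 in S100A7 cells, or 1.58-fold higher at the least. This came from 1 of its 3 probe sets. The other 2 were below the floor on both arrays, at 31.7 and 54.4 and at 37.9 and 27.7. With the floor at the 30th percentile both readings of the first lay above the floor, and its log2 ratio was 1.97.

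Receptors that bind TRAFs without a death domain held higher, level and lower genes. TNFRSF14 (HVEM), the receptor for LIGHT and a partner of the inhibitory receptor BTLA, read 84.2 in vector and 150 in S100A7 cells, 1.79-fold higher from a level near the floor. CD40, which answers CD40 ligand from T cells, was 1.13-fold higher, at 1602 and 1812. All 4 of its probe sets had log2 ratios above 0, from 0.01 to 0.46. TNFRSF12A (Fn14), the receptor for TWEAK and a gene known to be induced in injured and malignant epithelium, was equal on both arrays, at 7337 and 7333. TNFRSF11A (RANK), the receptor for RANKL that drives mammary alveolar development, read 133 and 131 with a second probe set at 124 and 121. It was level although its 40 neighbours had a median of 0.41. TNFRSF9, a costimulatory receptor of T cells, read 92.1 and 91.7, and TNFRSF13B (TACI), a B cell receptor for BAFF and APRIL, 91.1 and 120.

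The lower TRAF-binding receptors were lymphoid genes read near or below the floor. TNFRSF8 (CD30), a lymphocyte activation marker, read 130 in vector and 26.1 in S100A7 cells, at least 1.88-fold lower. TNFSF8, its ligand, read 114 in vector and 43.0 in S100A7 cells, at least 1.65-fold lower. Receptor and ligand were both lower, though each rests on 1 probe set, and 2 further probe sets of TNFSF8 lay at 3.18 to 40.7, below the floor on both arrays. TNFRSF13C (the BAFF receptor of B cells) read 75.96 and 17.8, at least 1.10-fold lower. Markers of B cells, which are known to express several of these genes, summed to 471 in vector and 350 in S100A7 cells with 2 of 4 measured. Most of that difference was in CD79A, at 315 and 202. CD79B was level, at 89.2 and 87.9, and MS4A1 and BLK were below the floor. The part of B cell markers in these readings was not tested. TNFRSF4 (OX40) read 59.8 and 69.4, where its floors lie, and is given no fold. TNFRSF17, TNFRSF18 and TNFRSF19 were below the floor, at 4.61 to 63.95 over their probe sets.

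**Figure D2:**
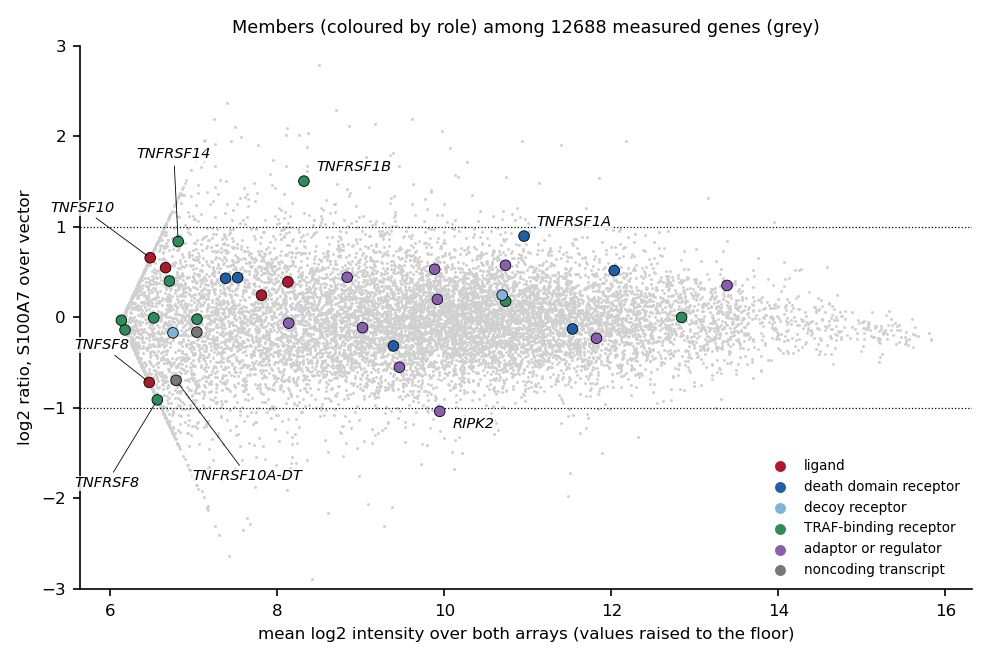
Log2 ratio (S100A7 over vector) against mean log2 intensity for 12688 measured genes (grey), with the 35 members coloured by role and those at least 1.5-fold apart named. TNFRSF1B (2.83-fold higher) and RIPK2 (2.05-fold lower) lie outside the dotted 2-fold lines, TNFRSF8, TNFSF8 and TNFSF10 lie on the edge that the floor sets, and 12 grey genes with an absolute log2 ratio over 3 fall beyond the axis.

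Ligands were mostly not measured. Of 14 ligand genes 9 were below the floor on both arrays: TNF, LTA, FASLG, TNFSF4, TNFSF11 (RANKL), TNFSF13B (BAFF), TNFSF14 (LIGHT), TNFSF15 (TL1A) and TNFSF18, with TNFSF4 the closest to it at 53.0 in vector and 67.8 in S100A7 cells. Of the 5 that were measured, 4 had a log2 ratio above 0 on the brightest probe set, beside 45.8% of all measured genes. For TNFSF10 and TNFSF8 only a bound is known, and the other 3 were within 2-fold. TNFSF13 (APRIL), a survival factor for plasma cells, read 244 in vector and 320 in S100A7 cells (1.31-fold higher) on the probe set that listed it alone. Measured probe sets that list TNFSF13 together with another gene went both ways, with log2 ratios of -0.14, -0.34 and 0.12. The direction of TNFSF13 is thus not settled. TNFSF9, the ligand of TNFRSF9, read 206 and 244 (1.18-fold higher). LTB, which anchors lymphotoxin alpha at the membrane, gave opposite answers: 83.8 and 122.5 on its brighter probe set, and 116 and 18.5 on the other. Its direction is therefore unsettled.

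Among adaptors and regulators RIPK2 stood out. RIPK2, a kinase that carries signals from the intracellular receptors NOD1 and NOD2 to NF-kB, read 1413 in vector and 688 in S100A7 cells, 2.05-fold lower (log2 ratio -1.04). Its other probe set read 96.2 and 67.2, a log2 ratio of -0.48 with the S100A7 side at the floor. Although both were lower, the size passed 2-fold only narrowly: the gene was under 2-fold with median centring, with the median over its probe sets (-0.76), without probe sets of shared-transcript suffixes (-0.48), and with the median of its chromosomal neighbours, -0.26, subtracted (-0.78).

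The adaptors next to TNFR1 were nearer to equal. TRADD, which binds the TNFR1 death domain and recruits TRAFs, read 786 in vector and 1136 in S100A7 cells (1.44-fold higher) on 1 probe set and 703 and 789 on another, while the last was below the floor. FADD, the adaptor that brings caspase-8 to death receptors, read 3924 and 3342 (1.17-fold lower). BIRC2 (cIAP1), a ubiquitin ligase of the TNFR1 complex that restrains cell death, read 9468 and 12080.5 (1.28-fold higher), a high reading on both arrays.

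CFLAR (FLIP), the inhibitor that keeps caspase-8 from full activation, had the most probe sets of any member, and they disagreed. Its brightest read 1394 in vector and 2076 in S100A7 cells (1.49-fold higher) and the next brightest 1052 and 1576 (log2 ratio 0.58). Of its 11 measured probe sets 8 were higher and 3 lower, from -0.50 to 0.70 on the log2 scale, and 10 of them carry a shared-transcript suffix. The gene makes a long and a short protein by splicing, and probe sets can favour either, but the files used here do not tie a probe set to an isoform.

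The TRAF family, the ubiquitin ligases and scaffolds that bind the receptors' tails, showed no common direction. TRAF5 read 393 and 533 (1.36-fold higher) and TRAF3, which restrains the noncanonical NF-kB pathway, 903 and 1036, with a second probe set at 240 and 357. TRAF4, first described in breast carcinoma, was 1.47-fold lower on its brightest probe set, at 854 and 583, with its 4 probe sets from -0.60 to 0.08. TRAF6, which serves CD40, RANK and the interleukin-1 receptor, read 540 and 499 on its brighter probe set and 381 and 222 on the other. TRAF1, itself a target of NF-kB, read 288 and 275 with its other probe set higher, at 145 and 175.

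**Figure D3:**
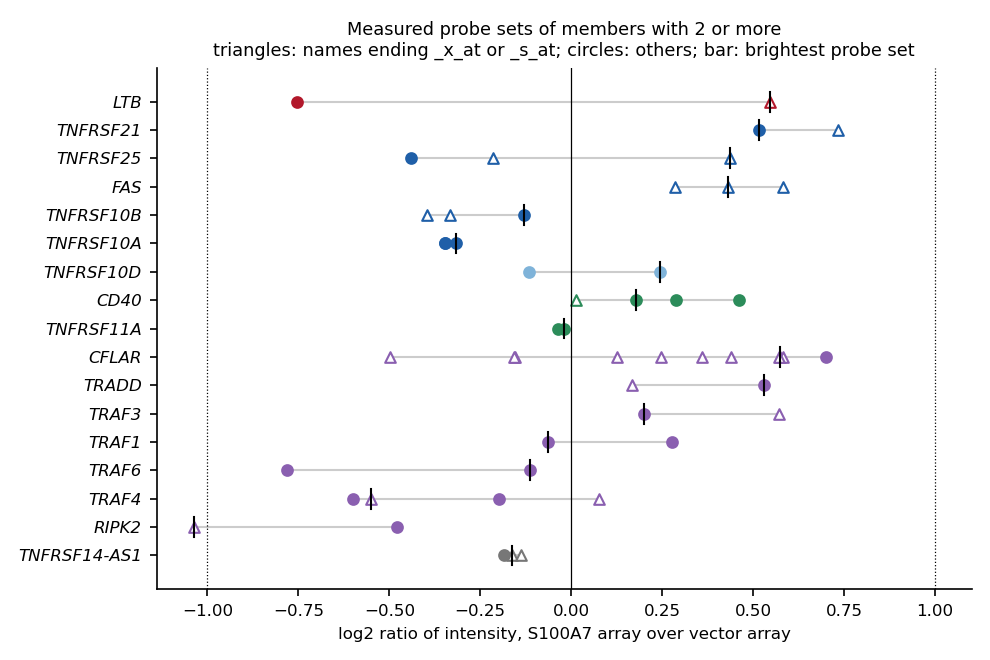
Log2 ratio of every measured probe set of the 17 members that had 2 or more, with triangles for names ending in _x_at or _s_at, circles for the others, a short bar at the brightest probe set and dotted lines at 2-fold. All probe sets were higher for 5 genes, all were lower for 6, and those of CFLAR, LTB, TNFRSF10D, TNFRSF25, TRAF1 and TRAF4 lie on both sides of 0.

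Agreement between probe sets is the nearest thing to an error here, and it was loose. Pooled over genes, the standard deviation of log2 ratios among a gene's measured probe sets was 0.33 for the 17 members with at least 2 and 0.36 for all 6465 such genes. It was 0.43 for the 2155 dimmest of those genes and 0.30 for the 2155 brightest. The differences of TNFRSF1B and RIPK2 exceeded it, as did those of TNFRSF1A and TNFRSF14, while that of TNFRSF10A did not. Smaller or divided differences exceeded it too, among them CFLAR (log2 ratio 0.57), TRAF4 (-0.55), LTB (0.55) and TRADD (0.53). Passing it therefore does not set a gene apart. This spread covers probe sets on the same pair of arrays and holds nothing of the spread between cultures or between separately selected lines. It could not be formed for the 18 members with 1 measured probe set, TNFRSF1A, TNFRSF1B and TNFRSF14 among them.

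The 3 noncoding transcripts were read weakly. TNFRSF10A-DT, a transcript divergent from TNFRSF10A, read 141 in vector and 86.9 in S100A7 cells, 1.62-fold lower, in the same direction as its coding neighbour. TNFRSF14-AS1 was 1.12-fold lower on its brightest probe set, at 139 and 124, with its 3 probe sets from -0.18 to -0.14, whereas TNFRSF14 beside it was higher. TNFRSF10B-AS1 was below the floor. Of the 8 probe sets that list a superfamily gene with a second gene, 6 were measured, with log2 ratios from -0.89 to 0.37, and they are assigned to no gene.

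Neighbouring genes differed between the lines in parts of the genome, so each member was set beside its surroundings. The median over the 40 nearest measured genes along the chromosome was 0.05 for TNFRSF1B, -0.08 for TNFRSF1A, 0.04 for TNFRSF14 and 0.00 for TNFSF10, so these 4 were higher in regions that were level. After that median was subtracted TNFRSF1B stood at 1.45 and TNFRSF1A at 0.97 on the log2 scale. For LTB, which was 1.46-fold higher on its brighter probe set, the neighbours were at 0.32, and for RIPK2 at -0.26.

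**Figure D4:**
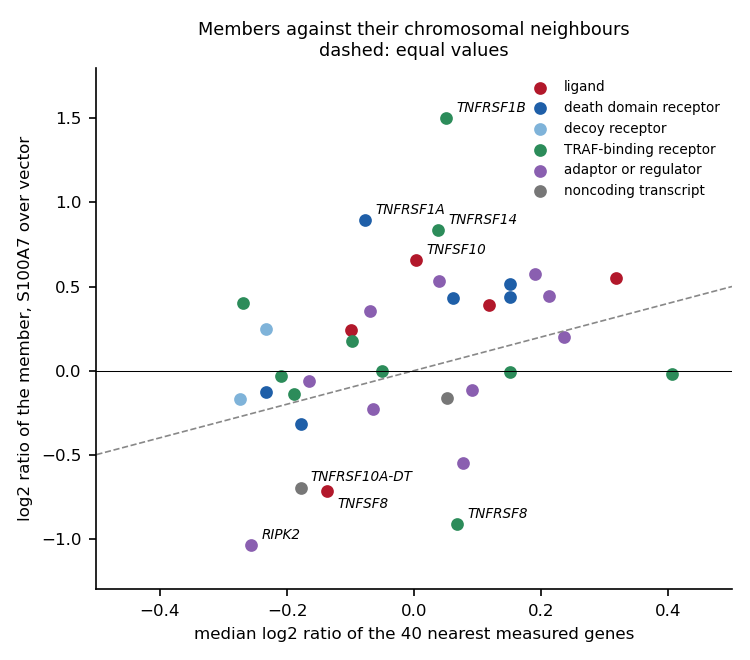
Log2 ratio of each of the 35 measured members against the median log2 ratio of its 40 nearest measured genes on the chromosome, coloured by role, with equal values along the dashed line. TNFRSF1B, TNFRSF1A and TNFRSF14 lie far above the line with neighbours between -0.08 and 0.05, whereas RIPK2 lies below it with neighbours at -0.26.

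Superfamily genes whose symbols fall outside the rule gave a similar picture. Of 10 such genes 5 were measured, and 0 were shown to lie outside 2-fold, though EDARADD and CD27 have only a bound. Of all measured genes 1.8% were 2-fold or more higher and 2.25% as much lower. LTBR, the lymphotoxin beta receptor, read 1305 in vector and 1050 in S100A7 cells (1.24-fold lower), although another of its probe sets was at 0.68 on the log2 scale. EDARADD, the adaptor of the ectodysplasin receptor, read 64.5 and 127, at least 1.78-fold higher, with EDAR and EDA below the floor. CD70, the ligand of CD27, was level (log2 ratio 0.06).

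Downstream of the receptors, genes of the IKK and NF-kB chain were more often higher than lower. Of 15 listed genes 14 were measured, 10 had a log2 ratio above 0, 1 was 2-fold or more higher and 0 as much lower, with a median of 0.38. Of all measured genes 45.8% had a log2 ratio above 0, 1.8% were 2-fold or more higher and 2.25% as much lower. The 1 gene was MAP3K14 (NIK), the kinase that starts the noncanonical pathway and that TRAF3 and cIAP1 hold at a low level as a protein. MAP3K14 read 475 in vector and 1319 in S100A7 cells, 2.78-fold higher (log2 ratio 1.47, from 1 probe set). IKBKB, a catalytic IKK subunit, was 1.65-fold higher at 626 and 1031, and NFKBIA, the inhibitor that NF-kB induces, 1.58-fold higher at 4652 and 7329. Without probe sets of shared-transcript suffixes the median of this list was 0.01.

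The receptor complex and its ubiquitin editing enzymes had a median log2 ratio of 0.09 over 25 measured of 27 listed genes, with 0 shown to be 2-fold higher and 2 at least 2-fold lower, beside 1.8% and 2.25% of all measured genes. A log2 ratio above 0 was found for 15 of the 25, beside 45.8% of all measured genes. Highest was TNFAIP3 (A20), a ubiquitin editing enzyme that limits NF-kB signalling, at 637 in vector and 1263 in S100A7 cells (1.98-fold higher). The other probe set of TNFAIP3 was at 0.46 on the log2 scale, and its chromosomal neighbours had a median of 0.41. Next came the kinase IKBKE (404 and 697, 1.72-fold higher, with its other probe set at -0.15 on the log2 scale). RNF31 (HOIP), the catalytic subunit of the linear ubiquitin ligase LUBAC, read 173 in vector and 62.5 in S100A7 cells, at least 2.50-fold lower. Its partners RBCK1 (3119 and 2185, 1.43-fold lower) and SHARPIN (567 and 508) were lower by less, and so were the deubiquitinases of linear chains OTULIN (795 and 615) and CYLD (1249 and 852). TRAIP, a ubiquitin ligase best known from DNA replication that binds TRAFs, was 2.21-fold lower at 213 and 96.8.

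Caspases and genes of death execution were mostly level or slightly lower, with a median near that of all measured genes. Of 21 listed genes 19 were measured, 3 had a log2 ratio above 0 against 45.8% of all measured genes, and the median was -0.07 with 0 genes outside 2-fold. The median over all measured genes was -0.04. For this list it was -0.03 with median centring and -0.31 without _x_at and _s_at probe sets. The count of signs leans partly on values close to 0, among them DIABLO and CASP6 (-0.01 each), CASP10 (-0.02) and DEDD (-0.03). The lowest were CRADD (RAIDD), an adaptor of caspase-2, at 1741 in vector and 1045 in S100A7 cells (1.67-fold lower), and DEDD2, a death effector domain protein, at 2502 and 1539 (1.63-fold lower). CASP2, the caspase that CRADD binds, was 1.60-fold lower at 3299 and 2068. CASP8, the initiator caspase of death receptors, was among the 3 above 0, at 1418 and 1725 (1.22-fold higher), as was PEA15, which blocks FADD and caspase-8, at 9910 and 13078.

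Transcripts typically raised by TNF were the list with the highest median, 0.61 over 25 measured of 35 listed genes. Of these 19 had a log2 ratio above 0, 7 were 2-fold or more higher and 0 as much lower, beside 45.8%, 1.8% and 2.25% of all measured genes. The cytokines IL1A, CXCL1 and CXCL8 led with log2 ratios of 2.11, 1.95 and 1.90, followed by the gelatinase MMP9 (1.74), the adhesion molecule ICAM1 (1.20) and IER3 (1.05). The other measured probe set of IL1A was level, at -0.02, so the place of that gene rests on 1 of its probe sets. Other typical targets did not take part: VCAM1 and SELE, adhesion molecules of endothelium, and CCL2, CCL20, PTGS2 and BCL2A1 were below the floor on both arrays, and IRF1 had a log2 ratio of -0.29. Without probe sets of shared-transcript suffixes the median was 0.07, and with a floor at the 30th percentile 0.14, so the median depended on which probe sets and genes were admitted. The list overlaps with the NF-kB chain and was drawn up with high values of several of its members already known, so its direction is no independent evidence.

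Enzymes that shed ligands and receptors, and the regulators of shedding, were measured for 10 of 10 genes with a median of 0.18. The median over all measured genes was -0.04. Of the 10 genes 6 had a log2 ratio above 0, 1 was 2-fold or more higher and 0 as much lower. The shares of all measured genes were 45.8%, 1.8% and 2.25%. ADAM17, which cleaves TNF and both TNF receptors, was 1.16-fold higher at 1446 and 1681. ERAP1, which also promotes shedding of TNFR1, was 2.49-fold higher, the 1 gene outside 2-fold. Its 3 measured probe sets ran from -0.39 to 1.32 on the log2 scale, with a median of 0.39. FURIN, the protease that activates pro-ADAM17, was 1.73-fold lower at 915 and 529, and TIMP3, the inhibitor of ADAM17, was 1.69-fold higher at 955 and 1611.

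**Figure D5:**
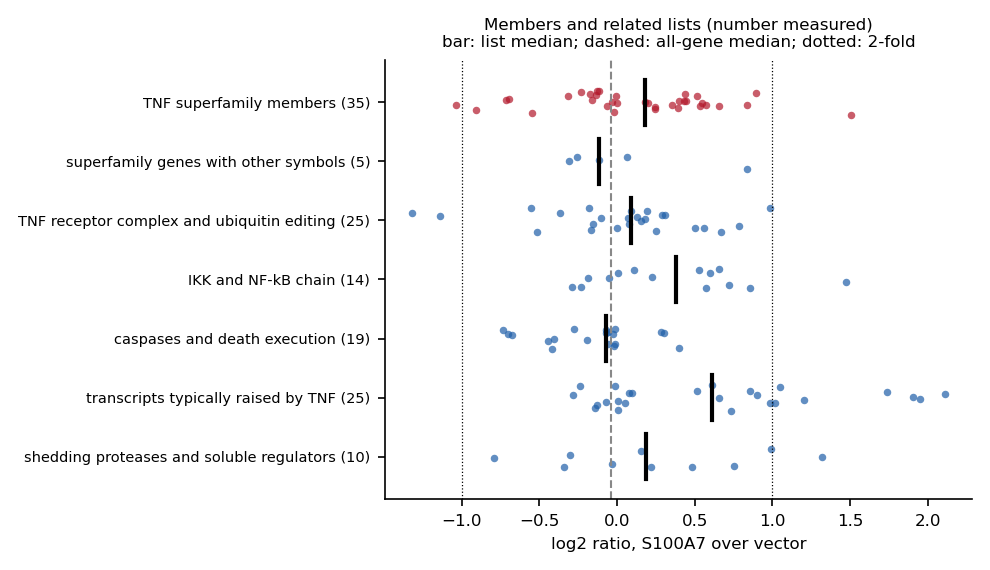
Log2 ratios of the measured members of the superfamily (top) and of 6 related lists, 1 point per gene, with a bar at each list's median, a dashed line at the median of all measured genes (-0.04) and dotted lines at 2-fold. The superfamily's median is 0.18, the TNF-raised transcripts have the highest at 0.61, and caspases and death execution genes lie mostly left of 0 with a median of -0.07.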

How the data were processed

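Total RNA from the 2 lines was hybridised to 1 array each (vector, S100A7). The authors deposited a linear intensity for each of 54675 probe sets, computed with MAS5 per the submitters' processing notes; the sources used here give neither its version, its scaling target nor detection calls. Means after trimming 2% at each end were 500.1 on both arrays, so values were used as deposited. Columns of values left unused numbered 0.

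The platform annotation gave 1 gene for 41097 probe sets, several for 1801 and none for 11777; 41043 of the first, and all 114 of members, matched a RefSeq table (GRCh38.p14), which served for symbols, neighbours and promoters. The floor leaves out 62 control probe sets. Floor, fold and gene rules are given with the results and were computed with Python 3.11.15, numpy 2.4.6 and pandas 2.3.3. The steps were run on simulated arrays with larger changes and less noise than the members showed. That run checks the working of the steps and says nothing about the differences described here. With 1 array per line there was no test, and the number of arrays limits the precision. Genes named are all members at least 1.5-fold apart and the 5 brightest others, with further members described by their readings, and from each related list those outside 2-fold (at most 6) or else the 2 furthest from 0; other list genes were picked after their values were seen. Members and lists were chosen with earlier results of these data known. Alternatives were floors at the 30th and 70th percentile, median over probe sets, no _x_at or _s_at probe sets, median centring, quantile normalization, a pseudocount of 32, thresholds of 1.5-fold and 3-fold, and every measured probe set at least 1.5-fold apart the same way; subtraction of the median of 40 chromosomal neighbours was chosen after seeing the data.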

Additional observations from a re-analysis of the deposited data

How the results depend on the processing

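No paired analysis was possible because each line had 1 array. TNFRSF1B was the gene behind the count of 1 at least 2-fold higher, and RIPK2 behind the count of 1 lower. With the floor at the 30th percentile the counts were 2 higher and 5 lower (679 and 979 among all genes, against 228 and 286). With the floor at the 70th percentile 19 members were measured, with 0 higher and 1 lower (99 and 88 among all genes). The related lists then held 7 genes outside 2-fold in place of 11. A pseudocount of 32 gave 2 higher and 3 lower (331 and 425 among all genes). A threshold of 1.5-fold gave 4 and 4 (1030 and 1275 among all genes), and one of 3-fold 0 and 0. The lower count was 0 with median centring (245 among all genes) and with the median over probe sets (230 among all genes). It was also 0 with the demand that every probe set be 1.5-fold apart the same way and with subtraction of chromosomal neighbours. Without _x_at and _s_at probe sets it was 0 too (227 among all genes), and 5 list genes were left outside 2-fold. In that last setting ERAP1 turned to -0.39 and IL1A to -0.0197 on the log2 scale. The members' median log2 ratio lay between -0.03 and 0.22 over the settings run. TNFRSF1A kept a log2 ratio between 0.88 and 0.97 and TNFRSF1B one between 0.93 and 1.55 in the settings that gave a value. Where a value moved and the setting itself does not show why, the cause was not tested. Readings near the floor, as for TNFSF10, TNFRSF8 and TNFSF8, give at most a direction and a bound for this pair of arrays. For TNFSF10 and TNFSF8 these come from 1 of 3 probe sets.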
